A study of Mus musculus with 47 samples.

Results

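Hox and T-box genes encode patterning factors, and their transcripts were followed here through the adult reproductive cycle of the mouse mammary gland. The set was defined by name, as every gene whose symbol is *Hoxa*, *Hoxb*, *Hoxc*, *Hoxd* or *Tbx* followed by a number. Of 52 such symbols in the gene annotation, 34 had a row among the 17078 genes of the deposited table, and these 34 genes are the members described below. They comprised 8 of 11 *Hoxa*, 7 of 10 *Hoxb*, 6 of 9 *Hoxc*, 5 of 9 *Hoxd* and 8 of 13 *Tbx* genes. The other 18 symbols had no row, and the authors' removal of genes with low counts applied to the table, so nothing is said of them here.

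Hox proteins are homeodomain transcription factors encoded in gene clusters, and genes of the same number in different clusters are paralogs. They assign position along the body axis in the embryo and bind DNA together with cofactors of the TALE class (Pbx, Meis and Pknox proteins), while Polycomb and Trithorax complexes maintain the off and on states of the clusters. T-box proteins share a different DNA binding domain: Tbx3 is required for the mammary placodes to form and, like the related Tbx2, acts mainly as a repressor, whereas Tbx5 initiates the forelimb and shapes the heart.

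RNA-seq was performed on luminal (Lin- CD24+ CD29lo) and basal (Lin- CD24+ CD29hi) mammary epithelial cells that had been sorted by FACS from FVB/N mice, a wild-type inbred strain, with glands of several mice pooled for a sort. The 8 time points were 10 weeks of age (W10) and 4 months of age (M4) without pregnancy, day 3.5 (P3.5) or 14.5 (P14.5) of pregnancy, lactation at day 3 (L3) or day 10 (L10), day 2 after forced weaning (Id2) and week 4 after weaning (Iw4). There were 24 luminal and 22 basal libraries, 3 for each time point and cell type except basal cells at P14.5 and at L10, with 2 each. Each library held 4398806 to 20023054 reads on genes (median 8518616), so that 3 reads, taken as the smallest measurable amount, corresponded to 0.17 to 1.05 CPM, the unit used for levels below, which scales the reads of a gene by the size of its library. Luminal and basal cells of the same time point and replicate came from the same sort. W10, M4 and Iw4 are together called non-pregnant below, although Iw4 mice had lactated, and L3 and L10 are together called lactation. RNA of L3 and L10 was amplified in a batch of its own, so that stage and amplification batch cannot be told apart in comparisons of lactation with other stages, while the 2 cell types shared each batch.

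The labels were compared with cell type markers before the members were examined. All 9 luminal markers were lower and all 9 basal markers higher in the basal libraries over the time points. The 3 basal libraries of Id2 stood apart from the other basal libraries. Their levels of *Krt5*, a keratin of basal cells, were 4.68, 156 and 6.95 CPM, against at least 779 CPM in each of the other 19 basal libraries, and *Trp63*, the basal identity factor, was at 9.99, 26.6 and 3.39 CPM. The 9 basal markers were not all low, since *Itgb1*, the gene of CD29, was at 932, 1037 and 676 CPM, and *Acta2*, smooth muscle actin, at 537, 8399 and 515 CPM. Their sum was 2292, 18670 and 1777 CPM in Id2 basal replicates 2, 4 and 6, against 12120 to 74680 CPM in the other basal libraries, so that replicate 4 lay within that range. The 10 fibroblast markers summed to 3273, 11310 and 74450 CPM in these libraries, with *Pdgfra* at 51.5, 301 and 2002 CPM, and replicate 2 carried *Pecam1*, an endothelial marker, at 3205 CPM. The antibodies listed by the study for removing other cells included CD31 and CD140a, the products of *Pecam1* and *Pdgfra*, the latter listed as directed to the human protein. *Pdgfra* was also high in the basal libraries of P14.5 (214 and 136 CPM) and in L3 basal replicate 6 (75.8 CPM), whereas it was at 1.85 and 0.254 CPM in L3 basal replicates 4 and 5 and at 4.98 and 1.05 CPM in the L10 basal libraries. The sum of the 10 fibroblast markers was nevertheless 854 and 1429 CPM in L3 basal replicates 4 and 5 and 1647 and 2229 CPM in the L10 basal libraries. In the non-pregnant basal libraries it was 253 to 415 CPM at W10, 291 to 728 CPM at M4 and 388 to 2122 CPM at Iw4. *Pdgfrb* was at 83.2 to 613 CPM and *Col1a1* at 164 to 419 CPM in these 4 lactation libraries. Results for basal cells are therefore also given without the Id2 and P14.5 libraries and L3 basal replicate 6, a choice made after the values were seen. In bulk RNA of this kind, fewer cells of a type and less RNA per cell cannot be told apart.

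Hox transcripts were scarce, and *Tbx3* was the most abundant member on average. Averaged over the 46 libraries, 16 of the 34 members reached 1 CPM and 18 did not. *Tbx3* was the only member with at least 3 reads in all 46 libraries. At least 3 reads were present in most luminal libraries (over 12 of 24) for 8 members and in most basal libraries (over 11 of 22) for 20 members. Per kilobase of exon, the mean level of *Tbx3* was 9.88 CPM per kb, followed by *Tbx2* at 2.97, *Tbx5* at 2.58 and *Tbx15* at 2.10 CPM per kb. Among the Hox genes the highest levels per length were those of *Hoxd8* at 1.76, *Hoxb4* at 1.39, *Hoxc10* at 1.38, *Hoxc6* at 1.32, *Hoxd9* at 1.18 and *Hoxa7* at 1.04 CPM per kb. Apart from *Tbx3*, no member reached a mean of 5 CPM in luminal cells at any time point. *Tbx4*, the hindlimb counterpart of *Tbx5*, *Tbx6*, a factor of paraxial mesoderm, and *Tbx21*, which encodes the T cell factor T-bet, stayed at or below 5.22 CPM in every library.

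**Figure D1:**
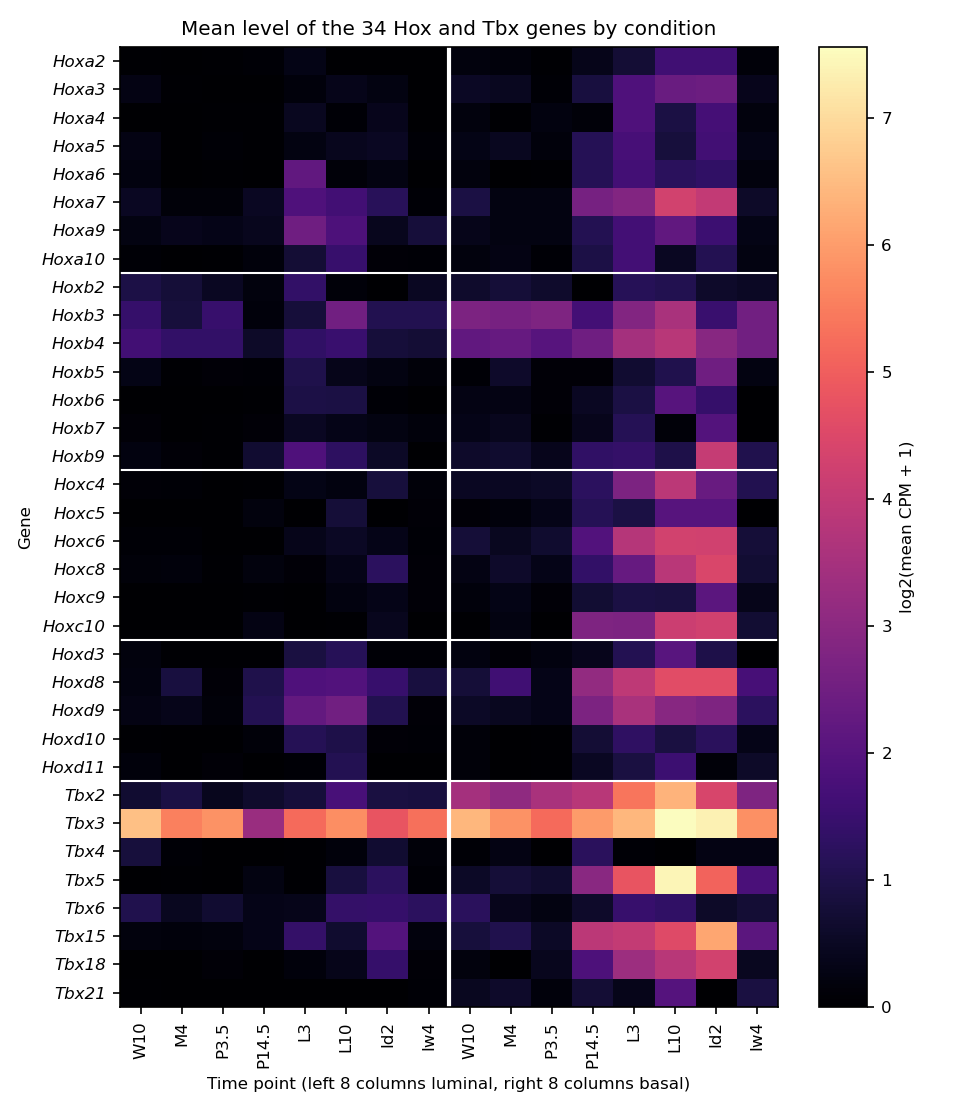
Mean level of each of the 34 members, as log2(mean CPM + 1) on the colour scale, in luminal cells (left 8 columns) and basal cells (right 8 columns) at each time point, with white lines between the 4 Hox clusters and the Tbx genes. Bright cells are confined to the *Tbx3* row in luminal cells, while in basal cells the columns P14.5, L3, L10 and Id2 are brighter than W10, M4, P3.5 and Iw4 across most rows.

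The promoters of the members were rich in CpG dinucleotides. RefSeq promoter entries (build GRCm38.p6) were found for 18 of the 34 members, as 20 windows of the 250 bases before a transcript start, and not for the other 16. The median window of a member held 12.5 CpG dinucleotides and 58.8% G and C, against 6 and 52.4% over 32851 windows of all genes. The sequences of 3 members are shown with CpG dinucleotides in capitals. They are those of *Hoxd8* (chr2:74704365-74704614, plus strand) and *Hoxd9* (chr2:74697513-74697762, plus strand), neighbours in the *Hoxd* cluster that both rose in basal cells at lactation, and of *Tbx18* (chr9:87731261-87731510, minus strand), the T-box gene with an entry that rose most.
Hoxd8: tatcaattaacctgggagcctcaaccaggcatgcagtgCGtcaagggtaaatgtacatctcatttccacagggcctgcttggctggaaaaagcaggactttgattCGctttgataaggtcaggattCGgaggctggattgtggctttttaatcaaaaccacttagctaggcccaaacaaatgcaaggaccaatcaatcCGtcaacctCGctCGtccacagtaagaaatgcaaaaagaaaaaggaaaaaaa
Hoxd9: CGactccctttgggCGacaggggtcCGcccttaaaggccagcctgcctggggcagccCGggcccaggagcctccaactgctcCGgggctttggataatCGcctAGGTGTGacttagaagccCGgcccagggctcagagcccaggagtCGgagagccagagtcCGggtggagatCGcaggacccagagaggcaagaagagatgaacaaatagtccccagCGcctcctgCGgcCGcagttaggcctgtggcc
Tbx18: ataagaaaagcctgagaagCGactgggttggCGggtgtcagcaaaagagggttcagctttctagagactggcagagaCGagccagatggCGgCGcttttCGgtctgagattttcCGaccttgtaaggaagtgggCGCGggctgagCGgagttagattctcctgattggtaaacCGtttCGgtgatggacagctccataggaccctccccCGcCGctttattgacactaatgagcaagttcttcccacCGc
The capital run AGGTGTG in *Hoxd9*, a core sequence that T-box proteins bind, began 147 bases before the start. It was searched on both strands and was found in this 1 of the 20 windows, against 5.1% of all windows. The composite site of Hox and Pbx proteins, TGATTNAT, was in 3 of the 20 windows (2.82% of all windows), the homeodomain core TAATTA in 3 windows, which belonged to 2 members (4.84%), and the TATA box TATAAA in 3 (12.4%). None of these matches overlapped another, and a match is a description of the letters only.

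Members of all 5 families were higher in basal than in luminal cells over the time points. Over the 8 time points, 13 of the 34 members were higher in basal cells, against 13.6% of all genes, and 0 were lower, against 7.35% (limma, fold change of at least 2 and false discovery rate (FDR) under 0.01, adjusted over all genes). The median difference of the members was 0.60 on the log2(CPM + 1) scale, where that of all genes was 0.02. Of the 34 members 33 reached 1 CPM in 3 basal libraries and 13 did so in luminal libraries, so that the remaining 21, 5 of the 13 called among them, had little room to be lower in basal cells, here or at a single time point. Markers of other cells were higher in the basal libraries as well, namely 10 of 10 fibroblast (median difference 3.11), 6 of 8 pericyte (2.73), 3 of 4 adipocyte (1.84) and 9 of 10 endothelial markers (1.67), with 0 of 9 leukocyte markers by limma, and their part in the result was not tested. The 13 comprised 1 of 8 *Hoxa*, 2 of 7 *Hoxb*, 4 of 6 *Hoxc*, 1 of 5 *Hoxd* and 5 of 8 *Tbx* genes. By edgeR 18 members were called higher, of which 11 were among the 13, and 0 lower. Without the Id2 and P14.5 libraries and L3 basal replicate 6 limma called 10, all of them among the 13. The ones lost were *Hoxa7* (0.72), *Hoxc8* (0.999) and *Tbx3* (0.53), which kept an FDR under 0.01 but fell below the fold change required, *Hoxc8* only just.

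*Tbx2* showed the largest difference between the cell types over the time points on the log2(CPM + 1) scale. Its level was 0.0983 to 3.19 CPM in luminal libraries (median 0.720, n = 24) and 1.07 to 91.5 CPM in basal libraries (median 11.4, n = 22), and it was higher in the basal than in the luminal library of the same sort in 22 of 22 sorts. The lowest basal values, 1.07 CPM at Iw4 and 2.19 CPM at Id2, lay within the luminal range. The difference was 3.09 ± 0.21 (log2 scale, SE, limma adjusted p = 1.32e-15), and it was called at each time point except Iw4 (1.61 ± 0.58, adjusted p = 0.0435).

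The other members called over the time points had differences between 2.43 for *Tbx5* and 1.08 for *Tbx3*. *Tbx15*, a factor of skin and skeletal patterning, differed by 2.20 ± 0.22 (SE), and *Tbx18*, which is also known from vascular mural cells, by 1.47 ± 0.18. *Hoxb4*, known for its effect on blood stem cells, differed by 1.55 ± 0.17, was higher in the basal library in 22 of 22 sorts and was also called at Iw4. *Hoxb3* differed by 1.30 ± 0.22 and was higher in basal cells in 21 of 22 sorts. Of its exon bases 52.9% are shared with the antisense gene *Hoxb3os*, which itself was higher in basal cells by 1.80 ± 0.12, and because the authors' counting is not stated to use strand, reads of this pair cannot be told apart. The same limit holds in part for *Hoxa7* (20.4% of exon bases shared), *Hoxa3* (27.1%), *Hoxb2* (27.3%), *Hoxd3* (62.8%) and *Tbx18* (20.6%).

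The number of members higher in basal cells depended on the time point. It was 1 at W10 (9.1% of all genes), 1 at P3.5 (7.27%) and 5 at P14.5 (9.54%). It was 13 at L3 (15.9%), 16 at L10 (13.8%) and 18 at Id2 (12.2%), and 1 at Iw4 (7.79%) and 1 at M4 (8.2%). No member (0) was lower in basal cells at any time point by limma or edgeR, also at an unadjusted p under 0.05 (0 by either). Of all genes 5.12% were lower in basal cells at W10, 4.64% at P3.5, 3.39% at P14.5, 9.87% at L3, 10.9% at L10, 9.39% at Id2, 3.75% at Iw4 and 4.24% at M4. These were 56 calls in 20 members, and 14 members were called at no time point. With the sort as a block there were 64 calls, with 8 at P14.5, 14 at L3, 21 at Id2 and 2 at Iw4. By edgeR there were 8 at P14.5, 8 at L3, 12 at L10, 11 at Id2 and 0 at Iw4. Without the libraries named above there were 35 calls at the 6 time points that remained, where the reported model had 33, with 4 in place of 1 at Iw4. *Hoxc* genes supplied 4 of 6 members at L3 and 5 of 6 at L10, with differences at L10 of 3.65 for *Hoxc4*, 3.82 for *Hoxc6*, 3.53 for *Hoxc8* and 3.67 for *Hoxc10* on the log2(CPM + 1) scale.

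In summed CPM, the 26 Hox genes together stood at 16.4 ± 4.14 (SD, n = 3) in basal cells at W10, 13.2 ± 3.46 (n = 3) at P3.5, 20.9 ± 8.79 (n = 3) at Iw4 and 17.4 ± 5.21 (n = 3) at M4. They reached 48.3 ± 36.9 (n = 2) at P14.5, 101 ± 53.6 (n = 3) at L3, 165 ± 53.1 (n = 2) at L10 and 164 ± 31.4 (n = 3) at Id2. Every L3, L10 and Id2 basal library was above every basal library of W10, P3.5, Iw4 and M4. In luminal cells the sum was 30.6 ± 18.1 (n = 3) at L3 and 29.4 ± 9.29 (n = 3) at L10, and 4.60 to 11.6 at the other time points. The clusters contributed unequally, since the *Hoxc* sum at L10 was 66.5 ± 18.0 CPM in basal and 1.77 ± 1.60 CPM in luminal cells, whereas the *Hoxd* sum was 36.3 ± 8.78 and 11.0 ± 8.37 CPM. The 8 *Tbx* genes summed to 96.7 ± 28.6 CPM in luminal and 98.0 ± 12.7 CPM in basal cells at W10. At P3.5 their sum was 56.7 ± 4.80 CPM in luminal and 48.4 ± 7.10 CPM in basal cells, lower in the basal library of each of the 3 sorts, and at L10 59.8 ± 5.56 and 478 ± 116 CPM.

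Change along the reproductive cycle was tested in each cell type separately. In luminal cells 2 members varied over the time points, *Tbx3* and *Hoxd9* (34% of all genes, limma moderated F test, FDR under 0.01), and edgeR on the recovered reads called 13. In basal cells 19 members varied (44.5% of all genes), and edgeR called 20.

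The comparison of lactation with the non-pregnant stages asked how far these factors move when the gland secretes milk. In basal cells 17 of 34 members rose, against 10.4% of all genes, and 0 fell, against 7.78% (limma, Benjamini-Hochberg), as by edgeR (0) and at an unadjusted p under 0.05 (0 by either). The table holds genes that reached 1 CPM in 3 libraries, and 24 of the 34 members did not do so within the 18 non-pregnant libraries, among them 10 of the 17 that rose, so that a low member could enter the table only through stages where it was higher. Without the basal lactation libraries 32 of the 34 reached that limit, all of the 17 among them. The 41 libraries left still included those of Id2, P14.5 and luminal lactation, so this does not free the count of 17 from the selection. The median change of the members was 1.09 and that of all genes -0.04 on the log2(CPM + 1) scale. The 17 were 4 of 8 *Hoxa*, 1 of 7 *Hoxb*, 5 of 6 *Hoxc*, 3 of 5 *Hoxd* and 4 of 8 *Tbx* genes. With the sort as a block the 17 were called again, edgeR called 20, of which 16 were among the 17, and 14 were called without the libraries named above, all of them among the 17. The 3 that lost their call there were *Hoxa6* (0.95, limma adjusted p = 0.0280), *Hoxa9* (0.98, adjusted p = 0.0226) and *Hoxd3* (0.90, adjusted p = 0.0155). For 12 members every lactation library was above every non-pregnant library in basal cells (7.91% of all genes), and for 0 it was below (6.05%).

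*Tbx5* changed most. Its level in basal cells was 0.152 to 4.71 CPM in the 9 non-pregnant libraries (median 1.01), 5.13, 49.2 and 26.4 CPM at L3 and 137 and 204 CPM at L10. The lactation libraries were all above the non-pregnant ones, although L3 replicate 4 exceeded the highest of these only slightly. The change was 4.90 ± 0.45 (log2 scale, SE, limma adjusted p = 5.21e-11). At Id2 the 3 basal libraries had 2.97, 83.0 and 12.8 CPM of *Tbx5*, a wide spread, and at P14.5 there were 12.2 and 1.48 CPM. In luminal cells *Tbx5* never exceeded 1.87 CPM.

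**Figure D2:**
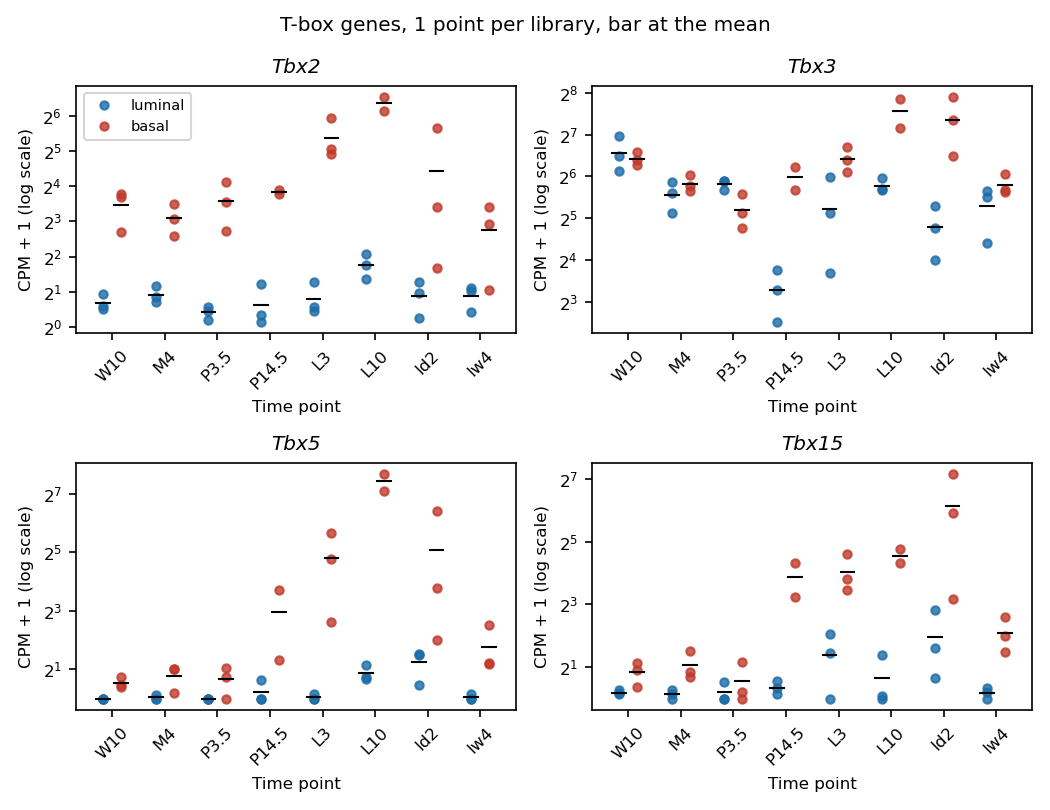
Level of *Tbx2*, *Tbx3*, *Tbx5* and *Tbx15* in each library (CPM + 1, log scale) by time point, with luminal libraries in blue, basal libraries in red and a bar at the mean. The 2 basal L10 libraries have the highest *Tbx2* and *Tbx5* values of all libraries, and the luminal *Tbx3* values at P14.5, 4.72 to 12.6 CPM, are below the other luminal time points except for 1 library of L3.

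The other T-box genes that rose were *Tbx2*, *Tbx15* and *Tbx18*. *Tbx2* was at 1.07 to 12.6 CPM in the non-pregnant basal libraries (median 7.32), at 32.1, 29.3 and 60.2 CPM at L3 and at 70.1 and 91.5 CPM at L10. These ranges did not overlap, and the change was 2.86 ± 0.40 (SE, limma adjusted p = 4.04e-07). *Tbx15* went from 0.308 to 5.11 CPM (median 1.19) to 10.0, 13.1 and 23.4 CPM at L3 and 25.9 and 18.9 CPM at L10, again without overlap, a change of 2.96 ± 0.41. *Tbx18* was at 0 in the 3 M4 libraries and at most 0.807 CPM in the other non-pregnant basal libraries, and at 4.17, 5.46 and 17.5 CPM at L3 and 17.4 and 8.74 CPM at L10. Its change was 3.21 ± 0.35. The highest values of *Tbx15* and *Tbx18*, 142 and 32.5 CPM, were those of Id2 basal replicate 6, the library with the most *Pdgfra*.

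*Tbx3* was followed in each cell type separately. Whether its changes from P3.5 to P14.5 and from W10 to Id2 differed between the cell types was not tested. In luminal cells *Tbx3* fell late in pregnancy. It was at 58.0, 58.8 and 49.8 CPM at P3.5 and at 8.73, 4.72 and 12.6 CPM at P14.5, with no overlap between them. The difference was -2.63 ± 0.40 (SE, limma adjusted p = 9.02e-05) within the same amplification batch, and this was the only member that differed between these time points in luminal cells (0.709% of all genes were lower, and 0.814% higher beside 0 members). Luminal *Tbx3* was also lower at Id2, with 38.3, 15.0 and 26.2 CPM, than at W10, with 123, 89.5 and 69.6 CPM, again without overlap (-1.84 ± 0.40, adjusted p = 0.000907, same amplification batch). In these luminal libraries the leukocyte markers summed to 171 to 701 CPM at Id2 against 21.9 to 35.7 CPM at W10. The fibroblast markers summed to 236 to 5367 against 121 to 405 CPM and the pericyte markers to 790 to 933 against 640 to 1288 CPM. The part of these transcripts was not tested. In basal cells *Tbx3* was at 94.3, 76.5 and 83.6 CPM at W10, 74.4 and 50.04 CPM at P14.5, 143 and 232 CPM at L10 and 88.5, 237 and 162 CPM at Id2. At P3.5 the basal libraries held 601, 631 and 364 reads of *Tbx3*, with 1 read worth 0.0566, 0.0745 and 0.0722 CPM. These basal levels were below those of P14.5, whereas luminal *Tbx3* was higher at P3.5. The basal difference between P3.5 and P14.5 was not called. The basal change at lactation was 0.95 ± 0.28 (adjusted p = 0.00576), which is below the fold change required for a call, and the ranges of lactation and non-pregnant libraries overlapped.

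Among Hox genes, the *Hoxc* cluster moved most in basal cells. *Hoxc6*, known for expression in the thoracic region where mammary glands form, was at 0 to 1.31 CPM in the non-pregnant basal libraries (median 0.665), at 3.45, 11.8 and 22.9 CPM at L3 and at 16.3 and 20.9 CPM at L10. The ranges did not overlap, and the change was 3.28 ± 0.33 (SE, limma adjusted p = 4.71e-10). *Hoxc10*, a lumbar patterning gene, rose by 2.85 ± 0.31, from at most 0.891 CPM to 3.61 to 29.3 CPM, and *Hoxc4* by 2.59 ± 0.31, from at most 2.29 CPM to 3.21 to 15.98 CPM, both without overlap. *Hoxc8* rose by 2.36 ± 0.36, although L3 replicate 4, with 0.642 CPM, lay within the non-pregnant range. *Hoxc5* rose by 1.35 ± 0.27, and *Hoxc9* was the member of this cluster that was not called.

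**Figure D3:**
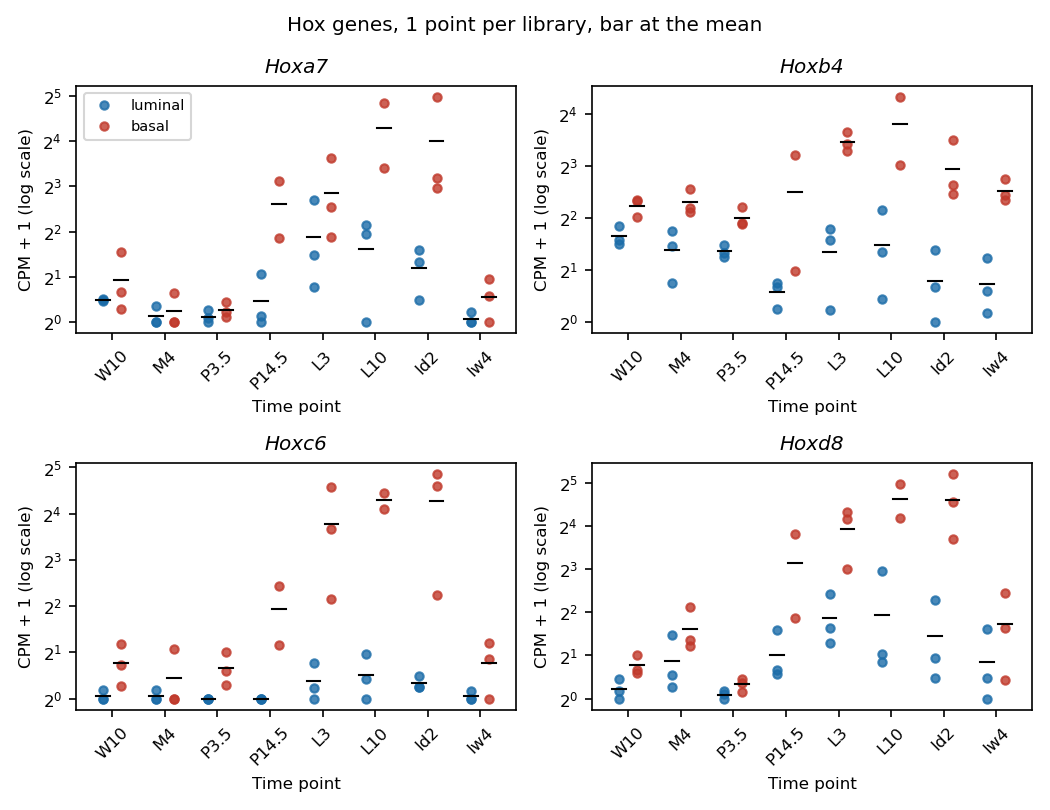
Level of *Hoxa7*, *Hoxb4*, *Hoxc6* and *Hoxd8* in each library (CPM + 1, log scale) by time point, luminal in blue and basal in red, with a bar at the mean. For all of these genes the 5 basal lactation libraries are above the 9 basal libraries of W10, M4 and Iw4, and *Hoxc6* does not exceed 0.942 CPM in luminal cells.

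In the *Hoxd* cluster, *Hoxd8* rose in basal cells by 2.92 ± 0.38 (SE, limma adjusted p = 1.3e-07), from 0.357 to 4.44 CPM (median 1.32) to 6.98, 18.9 and 16.9 CPM at L3 and 17.1 and 30.4 CPM at L10. *Hoxd9*, which together with its paralogs *Hoxa9* and *Hoxb9* is needed for mammary growth in pregnancy, rose by 2.42 ± 0.39, from 0 to 1.64 CPM to 2.66 to 13.1 CPM. Neither gene had overlapping ranges. *Hoxd3* also rose, by 1.24 ± 0.31, with the reservation on shared exons given above.

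In the *Hoxa* cluster, *Hoxa7* rose by 2.88 ± 0.36 (SE, limma adjusted p = 5.87e-08), from 0 to 1.95 CPM to 2.67 to 27.5 CPM without overlap. *Hoxa3*, a gene of thymus and parathyroid development, rose by 1.57 ± 0.25 and *Hoxa9* by 1.38 ± 0.38, although L3 replicate 4 was at 0 CPM of *Hoxa9*. *Hoxa6* rose by 1.18 ± 0.32, from at most 0.403 CPM to 0.127 to 4.08 CPM. In the *Hoxb* cluster *Hoxb4* alone rose, by 1.22 ± 0.32 (SE), from 3.08 to 5.72 CPM (median 4.09) to 7.16 to 19.0 CPM without overlap. Without L10 basal replicate 6 the change of *Hoxb4* was 0.90 and was not called, and *Hoxa6* lost its call without L3 basal replicate 4, L3 basal replicate 6 or L10 basal replicate 5 (down to 0.95).

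*Hoxb3* did not follow *Hoxb4*, its neighbour in the cluster. In basal cells it was at 2.32 to 7.47 CPM in the non-pregnant libraries, at 1.04, 5.84 and 11.7 CPM at L3, at 1.75 and 19.7 CPM at L10 and at 1.87, 1.16 and 2.42 CPM at Id2. The lactation libraries lay both below and above the non-pregnant range, and the change was 0.12 ± 0.42 (SE, limma adjusted p = 0.844). A single luminal library, L10 replicate 4, had 11.6 CPM of *Hoxb3*, while no other luminal library exceeded 2.24 CPM.

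The remaining 15 members, named here to account for the whole set, were not called by limma for lactation in basal cells. *Hoxa2*, a hindbrain patterning gene, came closest, with 0.99 ± 0.12 (SE, limma adjusted p = 5.69e-08), just under the fold change required, and all of its lactation libraries (0.241 to 2.45 CPM) were above the non-pregnant ones. *Hoxd10* (0.95 ± 0.25), *Hoxa5* (0.88 ± 0.20), *Hoxb6* (0.88 ± 0.29), *Hoxa4* (0.82 ± 0.30) and *Hoxd11* (0.72 ± 0.26) had changes of less than 1. Those of *Hoxa10*, *Hoxc9*, *Hoxb5*, *Tbx6*, *Tbx21*, *Hoxb2*, *Hoxb7* and *Hoxb9* were between 0.32 and 0.63, and that of *Tbx4* was -0.14. Except for *Hoxb9* and *Hoxb5* in a single Id2 library, none of these 15 exceeded 8.40 CPM in any library.

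In luminal cells 3 members rose at lactation, against 7.45% of all genes, and 0 fell, against 5.66% (limma), as by edgeR (0) and at an unadjusted p under 0.05 (0 by either). They were *Hoxd9* by 1.96 ± 0.37, *Hoxa9* by 1.45 ± 0.36 and *Hoxa7* by 1.28 ± 0.34 (SE), *Hoxa9* being named here after its values were seen. In the same luminal comparison 6 of 9 basal markers rose (median change 1.59, also 6 by edgeR), as did 3 of 8 pericyte markers (4 by edgeR). The basal markers summed to 711 to 1644 CPM at L3 and 574 to 2855 CPM at L10 in luminal libraries. They summed to 443 to 484 CPM at W10, 352 to 556 CPM at Iw4 and 401 to 428 CPM at M4. The part of these transcripts was not tested. *Hoxd9* was at 0 to 0.701 CPM in the non-pregnant luminal libraries (median 0.137), at 5.05, 4.24 and 2.10 CPM at L3 and at 0.532, 6.31 and 7.25 CPM at L10. The library with 0.532 CPM, L10 replicate 4, overlapped the non-pregnant range, and the ranges of lactation and non-pregnant libraries overlapped for all 34 members in luminal cells (4.07% of all genes were without overlap above and 3.34% below). edgeR called 10 members, and the fits that left out a library gave 2 to 7, with 7 without L10 luminal replicate 4 and 5 without L3 luminal replicate 4 or Id2 basal replicate 2. *Hoxa7* lost its call without L3 luminal replicate 5, L10 luminal replicate 5 or L10 luminal replicate 6 (down to 1.02). *Hoxa6* owed its luminal mean at L3 to replicate 5, with 10.5 CPM, beside 0.180 and 0.351 CPM.

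**Figure D4:**
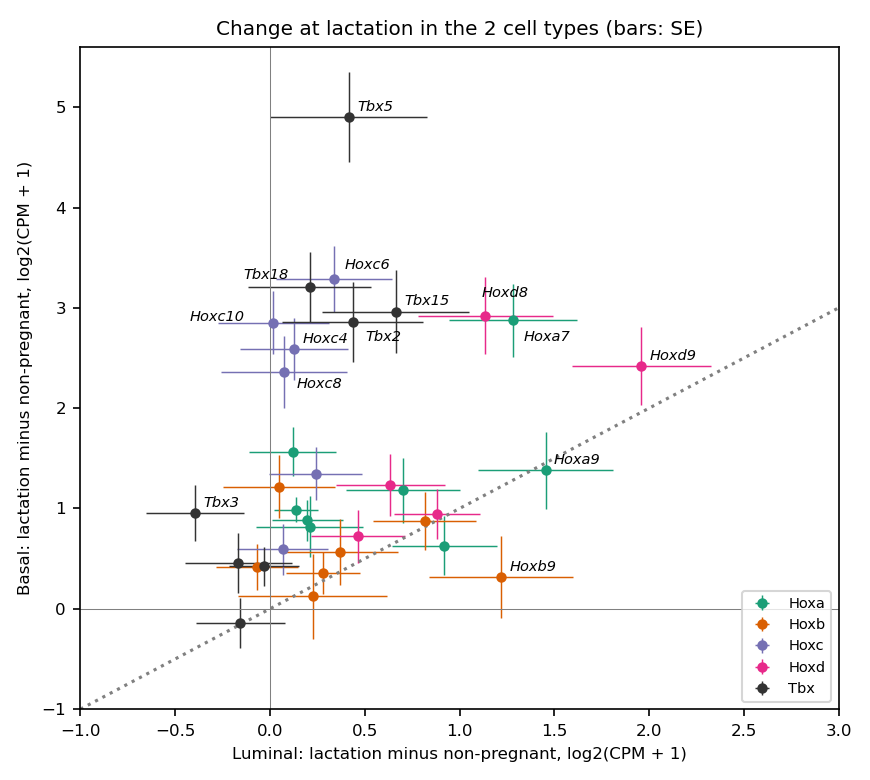
Change of each member between non-pregnant stages and lactation in luminal cells (x axis) and basal cells (y axis), in log2(CPM + 1) with bars of 1 SE, coloured by family, and a dotted line where the changes are equal. *Tbx5*, *Tbx18*, *Tbx15*, *Tbx2* and 4 *Hoxc* genes lie far above the line, with luminal changes of 0.66 or less, while *Hoxd9* and *Hoxa9* are displaced to the right.

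Whether the change at lactation differed between the cell types was tested directly, as the basal change minus the luminal change. By limma 10 members had a basal change above the luminal change (5.96% of all genes), and 0 in the other direction (5.45%), with a median over the members of 0.62 against 0.00 over all genes. They were *Tbx5* (4.49 ± 0.61, SE), *Tbx18* (3.00 ± 0.48), *Hoxc6* (2.95 ± 0.45), *Hoxc10* (2.84 ± 0.43), *Hoxc4* (2.46 ± 0.42), *Tbx2* (2.42 ± 0.55), *Tbx15* (2.30 ± 0.57), *Hoxc8* (2.29 ± 0.49), *Hoxa3* (1.45 ± 0.34) and *Tbx3* (1.35 ± 0.38). *Tbx3* itself was not called for lactation in either cell type. Of the 34 members 21 did not reach 1 CPM in 3 luminal libraries, *Hoxc6* and *Hoxa3* among them (at most 0.942 and 0.870 CPM). Such members needed basal libraries to enter the table and had little room for a larger luminal rise, which limits what the 0 in the other direction can show. The count was 10 also without the libraries named above, but 6 with a pseudocount of 0.1. Scaling without milk protein genes ended the calls of *Tbx3*, *Hoxa3* and *Tbx15* in this test. On the ratio scale of edgeR, by contrast, 0 members were called in this test, with 3 higher and 1 lower (*Hoxb9*, named after its value was seen) at an unadjusted p under 0.05, where limma had 16, all higher, and with 1464 genes called overall. Of the 10 members, *Hoxa3*, *Hoxc10*, *Tbx5* and *Tbx18* had 1 to 4 conditions of the 10 compared in which every library was at 0, which leaves a ratio undefined. For the other 6 the edgeR differences pointed the same way, between 0.98 for *Tbx15* (adjusted p = 0.69) and 3.39 for *Hoxc8* (adjusted p = 0.0837). The call for *Tbx3* (adjusted p = 0.00884) was lost in 25 of 46 fits that left out a library, with differences from 1.04 to 1.61.

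Transcripts of other cells moved with these results. In basal cells at lactation 7 of 8 pericyte markers rose by limma, the test used here unless edgeR is named, with a median change of 3.96. For 7 of 8 of these markers the rise was larger than in luminal cells (3 of 8 by edgeR). Their summed level in basal cells was 479, 577 and 654 CPM at W10, 2166, 4593 and 7737 CPM at L3 and 9436 and 16450 CPM at L10. Their most abundant gene over all libraries, *Rgs5*, was at 30.6 to 42.1 CPM at W10 and at 933 to 9895 CPM in the lactation libraries. *Higd1b* was at 0 in all W10 and P3.5 basal libraries and at 3.05 to 22.8 CPM at lactation. All 10 endothelial markers also rose in basal cells, and 8 of 10 in luminal cells, while 0 of the 10 differed in their change. All 4 adipocyte markers in the table, out of 8, rose in basal cells, and 2 of 4 in luminal cells (3 by edgeR). For 3 of the 4 the rise was larger in basal cells (1 by edgeR), with a median difference of 3.08 beside 2.64 for the pericyte list. The adipocyte markers without a row were *Adipoq*, *Cidec*, *Retn* and *Cfd*, and *Fabp4* was the most abundant one present (mean 181 CPM). Id2 basal replicate 2 had both the highest adipocyte sum, 3765 CPM, and the highest endothelial sum, 17650 CPM. Of 10 fibroblast markers 2 rose and 1 fell in basal cells (4 and 0 by edgeR). In the difference between the cell types 2 were higher and 1 lower (0 and 1 by edgeR). Leukocyte markers, 9 of 10 in the table, rose in 3 of 9 cases in basal and 5 of 9 in luminal cells (6 and 6 by edgeR). The part of these transcripts in the results for Hox and T-box genes was not tested. *Krt5*, *Krt14* and *Trp63* stayed at 457 CPM or above in the 5 basal lactation libraries.

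**Figure D5:**
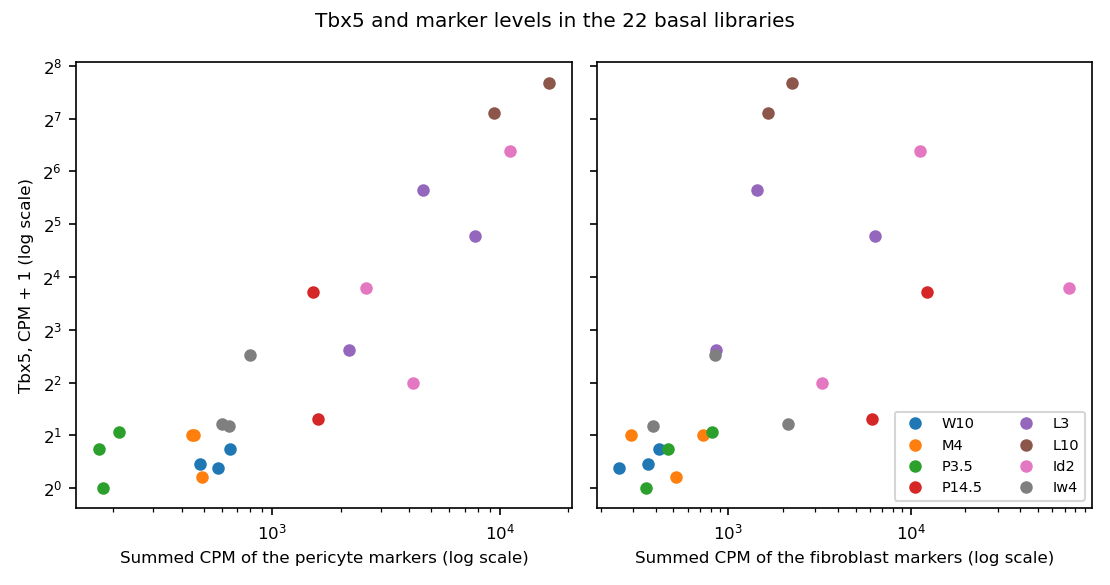
*Tbx5* (CPM + 1, log scale) in each of the 22 basal libraries against the summed CPM of 8 pericyte markers (left) and 10 fibroblast markers (right), both on log scales, coloured by time point. The 3 libraries with the most *Tbx5* (204, 137 and 83.0 CPM) are also the 3 with the most pericyte transcripts (16450, 9436 and 11110 CPM), while the library with the most fibroblast transcripts, at Id2, has 12.8 CPM of *Tbx5*.

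Time points that shared an amplification batch were compared within it, namely W10 with Id2, P3.5 with P14.5 and L3 with L10. Within each of these pairs the lanes differed (W10 in lane 2 and Id2 in lane 3, P3.5 in lane 5 and P14.5 in lane 6, L3 in lane 7 and L10 in lane 8), so that lane and time point cannot be told apart here. M4 and Iw4 were also compared, both sequenced in lane 7, but each had its libraries spread over 3 amplification batches, for which the model has no term. From W10 to Id2, 18 members were higher in basal cells (8.78% of all genes) and 0 lower (8.58%), including all 6 *Hoxc* genes, and edgeR called 11. In these Id2 libraries *Krt5*, *Krt14* and *Trp63* were far below the other basal libraries, while the summed basal markers were so in replicates 2 and 6 only, and the part of this in the result was not tested. The pericyte markers summed to 2578 to 11110 CPM at Id2 against 479 to 654 CPM at W10, the adipocyte markers to 266 to 3765 against 12.9 to 40.9 CPM, the endothelial markers to 496 to 17650 against 105 to 235 CPM and the fibroblast markers to 3273 to 74450 against 253 to 415 CPM, and their part was not tested either. The largest differences were those of *Tbx15* (4.60 ± 0.60, SE), *Hoxc10* (3.77 ± 0.45), *Hoxd8* (3.72 ± 0.55) and *Tbx18* (3.63 ± 0.51). In luminal cells over the same interval 0 were higher (6.23%) and 1 was lower, *Tbx3* (4.14%). *Hoxb9* and *Hoxb5*, named here after their values were seen, were among the 18 and were by far highest in a single library. Whether their calls depend on that library was not tested. *Hoxb9* was at 43.1 CPM in Id2 basal replicate 2, the library rich in *Pecam1*, and at most 2.78 CPM in every other basal library, and *Hoxb5* was at 12.6 CPM there beside 0.581 and 0.646 CPM in the other Id2 basal libraries.

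From P3.5 to P14.5, 3 members were higher in basal cells (2.46% of all genes) and 0 were lower (1.18%). They were *Tbx15* by 3.32 ± 0.67, *Hoxc10* by 2.56 ± 0.51 and *Hoxd8* by 2.51 ± 0.62 (SE, limma). Without the Id2 libraries 5 were called, with *Hoxa7* (2.23 ± 0.55) and *Tbx18* (1.44 ± 0.35) added. The fibroblast markers summed to 12250 and 6144 CPM in the 2 P14.5 basal libraries, against 352 to 814 CPM at P3.5. The pericyte markers summed to 1512 and 1582 CPM against 173 to 212 CPM, the endothelial markers to 861 and 356 against 13.8 to 63.9 CPM and the adipocyte markers to 268 and 98.6 against 1.72 to 14.6 CPM. The part of these transcripts in this result was not tested. From L3 to L10 no member (0) was called in luminal or basal cells by limma or edgeR. These time points share 2 sort dates, and with the date as a block, a fit added after seeing the data, *Tbx5* was called as higher at L10 in basal cells (2.92 ± 0.69, SE, limma adjusted p = 0.00987, against 0.0118 without the block). Without the Id2 libraries *Tbx5* (3.04 ± 0.55, adjusted p = 0.000994) and *Hoxc8* (1.96 ± 0.39) were called as higher at L10 in basal cells, the estimates being those of the reported model with a smaller SE. Without the Id2 and P14.5 libraries and L3 basal replicate 6 there were 4, namely *Tbx5* (3.26 ± 0.54), *Hoxc8* (2.69 ± 0.29), *Hoxc4* (1.76 ± 0.35) and *Hoxc5* (1.42 ± 0.34, adjusted p = 0.00997). At an unadjusted p under 0.05 limma had 3 higher and 2 lower in luminal cells and 10 higher and 2 lower in basal cells. Of all genes limma called 0.281% higher and 0.0995% lower in luminal cells, and 0.457% higher and 0.679% lower in basal cells. Between M4, age-matched mice that were never pregnant, and Iw4, mice 4 weeks after weaning, no member (0) was called in either cell type by limma or edgeR, and at an unadjusted p under 0.05 limma had 0 and edgeR 3, all higher in basal cells. With the amplification batch as a term, a fit added after seeing the data, limma again called 0 in either cell type, also at an unadjusted p under 0.05. Across all genes limma called 0 in luminal cells and 0.00586%, a single gene that was lower, in basal cells. The summed Hox level in basal cells was 17.4 CPM at M4 and 20.9 CPM at Iw4, a difference smaller than the SD at either time point.

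Cofactors and regulators of Hox genes were followed as well. Of 9 genes in the table from a list of TALE cofactors that also holds *Pbxip1*, which is not a TALE gene but encodes a protein that binds Pbx factors, 5 were higher in basal cells over the time points, led by *Pknox2* (3.99 ± 0.22, SE), *Meis2* (1.91 ± 0.28) and *Pbxip1* (1.87 ± 0.13). At lactation *Meis2* rose in basal cells by 3.59 ± 0.54 and in luminal cells by 2.07 ± 0.50, and *Pbxip1* rose in basal cells by 2.14 ± 0.25. *Meis1* changed by -1.33 ± 0.31 in luminal cells. Of 18 genes of Polycomb complexes, 2 were higher in basal cells over the time points, *Cbx6* (1.79 ± 0.12) and *Cbx2* (1.02 ± 0.16), and 0 changed at lactation in either cell type by limma or edgeR, with 11 in basal and 6 in luminal cells at an unadjusted limma p under 0.05. Of 8 genes of Trithorax complexes and H3K27 demethylases 0 were called in these comparisons by limma or edgeR, with 3 in basal and 3 in luminal cells at an unadjusted limma p under 0.05 at lactation.

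Genes beside the clusters were also examined. Of 7 *Cdx* and neighbouring genes in the table, out of 12, *Calcoco1*, which lies next to the *Hoxc* cluster, was higher in basal cells by 1.12 ± 0.11 (SE), and *Lnpk*, next to the *Hoxd* cluster, changed by -1.08 ± 0.33 in basal cells at lactation, a call that edgeR did not make. The noncoding gene *Hotairm1* of the *Hoxa* cluster rose in basal cells at lactation by 1.73 ± 0.22, as did *Hoxa3*, and *Hoxb3os* changed by -1.04 ± 0.22 in luminal cells. The 2 T-box genes outside the naming rule that had a row, out of 5, were not called in these comparisons by limma or edgeR (at an unadjusted limma p under 0.05, 1 of the 2 for basal minus luminal, 2 for lactation in luminal cells, 1 for lactation in basal cells and 1 for the difference). Among 19 genes of the embryonic mammary bud in the table, out of 21, 9 were higher (13.6% of all genes) and 1 lower (7.35%) in basal cells over the time points. At lactation in basal cells 4 of the 19 rose (10.4% of all genes) and 2 fell (7.78%). *Msx1*, a homeobox gene, was up by 2.36 ± 0.28 and *Edar*, the ectodysplasin receptor, changed by -1.67 ± 0.27. In luminal cells 5 rose (7.45%) and 3 fell (5.66%). The basal change was above the luminal change for 6 (5.96%) and below it for 2 (5.45%), and by edgeR for 3 and 3.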

How the data were processed

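RNA-seq libraries of sorted mammary cells were analysed from the deposited table of 46 libraries, and 47 samples are described, because the authors set aside P14.5 basal replicate 2 as an outlier. The authors amplified the RNA, aligned with GSNAP to mm9, tallied them on Ensembl genes by htseq-count, removed genes under 1 CPM in 3 samples and very abundant genes of low variability, and normalised with edgeR. The deposited signal is the count divided by the effective library size, as CPM. All values were whole multiples of what 1 read is worth (100%, within 0.01 of a step), so reads were recovered. Amplified reads carry no molecular identifiers, and the floor of 3 reads covers counting error only. No column was left out (0). Symbols came from an annotation of GRCm38.p6, a later build, and matched 16897 of 17078 identifiers, while 181 had none.

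limma 3.58.1 in R 4.3.3 was fitted to log2(CPM + 1), a scale that understates changes of low genes, with a mean for each of 16 conditions and a mean-variance trend, and p-values were adjusted by Benjamini-Hochberg over all genes. Calls required a fold change of 2 and an FDR under 0.01 (F tests, FDR alone). The comparisons with lactation share the non-pregnant libraries, and those at each time point share theirs with the means over time points. Changes were simulated in the basal lactation libraries for genes with a mean of at least 1 CPM. The spread was set alike for all genes and not taken from these data, and no effect of the sort was simulated. Over 17078 genes limma recovered 34% of 2-fold changes and 100% of 4-, 8- and 16-fold changes, with 0 false calls. edgeR 4.0.16 recovered 38 and 100%, with 1. For the difference between cell types limma recovered 14% of 2-fold and 96% of 4-fold changes. Members with a mean under 1 CPM, 18 of the 34, were not covered by this simulation. Luminal and basal libraries of a sort (22 pairs, from the labels) deviated together, with a median correlation across genes of 0.25 (-0.00479 to 0.386, 21 positive), so a fit with the sort as a block was added (consensus correlation 0.179). The 24 sorts fell on 22 dates, 2 of them shared by L3 and L10. Alternatives were a pseudocount of 0.1, median ratio scaling, scaling without milk protein genes, a mean of at least 1 CPM, edgeR on the recovered reads, an FDR of 0.05, and libraries left out. Members, marker lists and pathway lists were chosen with earlier results of these data known. Genes were named by rule, as the 2 of highest level per length in each family, those with the largest called difference between cell types and at lactation, and all members whose change at lactation differed between cell types. Values of some list genes are not reported here.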

Additional observations from a re-analysis of the deposited data

Results flagged for a closer look

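For 10 members the change at lactation, against the non-pregnant stages, differed between the cell types by limma's test of the difference itself, and the basal change was above the luminal change in each. The differences (basal minus luminal change, log2(CPM + 1)) were 4.49 for *Tbx5*, 3.00 for *Tbx18*, 2.95 for *Hoxc6*, 2.84 for *Hoxc10*, 2.46 for *Hoxc4*, 2.42 for *Tbx2*, 2.30 for *Tbx15*, 2.29 for *Hoxc8*, 1.45 for *Hoxa3* and 1.35 for *Tbx3*. The edgeR test of the same difference called 0 members. Of the 34 members 21 did not reach 1 CPM in 3 luminal libraries, which left them little room for a larger luminal rise. Transcripts of the pericyte and adipocyte lists rose more in basal than in luminal cells at lactation, by limma for 7 of 8 and 3 of 4 markers. Of the 8 genes on the adipocyte list only 4 had a row. By edgeR this was so for 3 of 8 and 1 of 4. The part of these transcripts was not tested. *Tbx3* was not called for lactation in either cell type.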

How the results depend on the processing

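Median ratio scaling and the sort as a block moved none of the 8 summed counts beyond 1.5 times, although the block gave 8 members in place of 5 at P14.5 and 2 in place of 1 at Iw4. The date of the sort as a block, added after seeing the data, gave 63 at single time points and 24 in the paired comparisons (23). These pair W10 with Id2, P3.5 with P14.5, L3 with L10 and M4 with Iw4. In the reported model 18 basal calls and 1 luminal call of these were for Id2 against W10. The one added by the date block was *Tbx5* from L3 to L10 in basal cells. The other counts were as under the sort block except for 19 in place of 18 for basal change over time. The sort block changed 1 call among the 64 single values tested, adding *Hoxd8* to the members whose change at lactation differed between cell types. With a pseudocount of 0.1 the members called were 23 for basal minus luminal over the time points (13 in the model reported), 6 for luminal change over time (2), 7 for lactation in luminal cells (3) and 6 for the difference between cell types (10). With genes of at least 1 CPM, in which fewer members are tested, basal change over time had 12 (19). edgeR gave 13 for luminal change over time, 10 for lactation in luminal cells and 0 for the difference, and 11 in place of 18 both for basal minus luminal at Id2 and for Id2 against W10 in basal cells, 8 in place of 13 at L3 and 8 in place of 5 at P14.5. An FDR of 0.05 gave 5 for luminal change over time and 5 for lactation in luminal cells. Without the Id2 libraries there were 5 for lactation in luminal cells and 8 in the paired comparisons. The reported model had 4 in the pairs that remained (23 with Id2). A further fit left out the Id2 and P14.5 libraries and L3 basal replicate 6, chosen after seeing the data. It gave 35 at single time points (33 at the same ones, 56 in all). The same fit gave 5 for lactation in luminal cells and 4 in the paired comparisons (0 in the same ones). Scaling without milk protein genes moved the median of all genes at lactation by -0.32 in luminal and -0.33 in basal cells, and of the 64 single values tested 5 lost their call (basal minus luminal of *Tbx3*, basal lactation of *Hoxb4*, and the difference of *Tbx3*, *Hoxa3* and *Tbx15*) and 2 turned direction. The cause of these shifts was not tested.

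Leaving out each of 46 libraries gave 13 to 14 members for basal minus luminal and 53 to 62 at single time points. Change over time had 1 to 4 in luminal and 18 to 24 in basal cells. Lactation had 2 to 7 in luminal and 14 to 21 in basal cells, the difference 9 to 13 and the paired comparisons 18 to 26. Luminal change over time had 1 without L3 luminal replicate 4, L10 luminal replicate 5 or L10 luminal replicate 6, and 4 without L10 luminal replicate 4 or Id2 basal replicate 2. The luminal count at lactation was 5 without L3 luminal replicate 4, 7 without L10 luminal replicate 4 and 5 without Id2 basal replicate 2. Changes that turned direction were small in the model reported. With a pseudocount of 0.1, *Hoxb3* had -0.32 for lactation in luminal cells and 0.34 for the difference, and *Hoxd9* -0.089 for the difference (-0.71 by edgeR). Scaling without milk protein genes gave -0.19 for *Hoxb4* in luminal cells and -0.30 for *Hoxb3* in basal cells, which was -0.17 without the libraries chosen after seeing the data. Over the fits without a library, lactation in luminal cells ranged from -0.16 to 0.29 for *Hoxb4*, -0.18 to 0.49 for *Hoxb3*, 0 to 0.025 for *Hoxc10*, -0.032 to 0.19 for *Hoxa3* and -0.00058 to 0.19 for *Hoxc4*. For *Hoxb3* it ranged from -0.61 to 0.85 in basal cells and from -0.83 to 0.63 for the difference.

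Most Hox genes were near the floor of 3 reads in luminal libraries, so that a change there was often not detectable at this depth. Groups of 2 or 3 libraries share an estimate of the spread, and p-values measure the spread between pooled sorts.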
